A study of Homo sapiens with 15 samples.

Results

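The 40 genes described here encode components of epithelial cell junctions (adherens junctions, tight junctions, desmosomes and gap junctions), the polarity proteins that position them, and factors that mark epithelial identity. They were chosen by symbol from a list, with earlier results of these data known. All 40 are present among the 35012 gene symbols of the count table. Of the 40, 37 passed the filter on low counts and were tested among 14621 genes. CLDN7, ESRP1 and GRHL2 did not pass. RNA was sequenced from HepG2, an established cell line from a human liver tumour, in 4 groups harvested 5 days after lentiviral transduction and puromycin selection. The control group carried a non-silencing hairpin (shNS, called NS, 4 libraries), the BRG1 group a hairpin against BRG1 (shBrg1, 4 libraries), the BRM group a hairpin against BRM (shBrm, 3 libraries) and the double group both hairpins (shBRG1 + shBRM, 4 libraries). All groups thus share transduction, selection and a single cell line, and how many hairpin sequences served each target is not given in the sources used here. BRG1 (gene SMARCA4) and BRM (gene SMARCA2) are the alternative ATPases of the SWI/SNF chromatin remodelling complexes, and the comparisons ask which transcripts depend on each, or on both.

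Epithelial cells are held together by a belt of junctions. In adherens junctions E-cadherin binds its like on the next cell and is tied to actin through catenins. In tight junctions claudins, occludin and tricellulin seal the space between cells and are held by scaffold proteins such as ZO-1 and cingulin, while desmosomal cadherins and plakophilins anchor keratin filaments and connexins form the channels of gap junctions. The PAR, Crumbs and Scribble-type polarity proteins separate the apical from the basolateral surface. In hepatocytes this arrangement closes off the bile canaliculus, and both connexin 32 and E-cadherin are made by hepatocytes.

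Library totals of estimated counts lay between 11500149 and 27187991. The libraries fell into 2 sets by replicate number, with 4.97 to 8.33% of counts from mitochondrially encoded transcripts in libraries 1 and 2 and 1.33 to 3.55% in libraries 3 and 4, and 8134 of 14621 genes (55.6%) differed between these sets. Of the 37 tested junction genes 15 did (10 higher and 5 lower in libraries 3 and 4). Log2 changes are therefore also given within each set ("by set", libraries 1 and 2 first). The second set holds a single BRM library. SMARCA4 stood at 307 ± 6.99 CPM (counts scaled to the TMM-adjusted library total, mean ± SD, n = 4) in NS, 27.8 ± 2.32 (n = 4) in BRG1, 346 ± 86.7 (n = 3) in BRM and 46.2 ± 6.09 (n = 4) in double libraries. SMARCA2 stood at 39.2 ± 4.05, 25.8 ± 3.64, 4.38 ± 2.22 and 2.57 ± 0.299 CPM in the same order, so each targeted gene was low where the labels say it was targeted. All 7 hepatocyte markers (ALB, AFP, APOA1, TTR, TF, SERPINA1 and HNF4A) were measured. Their summed level was 16988 to 24650.5 CPM in NS, 4164 to 13173 in BRG1, 38974 to 40587 in BRM and 8015 to 15422 in double libraries, so it moved with the groups. The 7 cholangiocyte markers, 4 of them tested and KRT19 the most abundant, summed to 1476 to 2154, 2834 to 5038, 414 to 1025 and 1181 to 2786 CPM. The 6 stromal markers, 2 of them tested and carried by COL1A1 and PDGFRB, summed to 31.6 to 72.0, 56.8 to 245, 13.6 to 26.0 and 20.8 to 39.8 CPM, with COL1A2, COL3A1, DCN and LUM each at or under 0.242 CPM in every group mean. The 5 blood markers, 4 of them tested and carried by LYZ and CD68, summed to 482 to 1696, 687 to 1402, 132 to 241 and 327 to 443 CPM with CD3E at 0 in all libraries, and the 4 endothelial markers to at most 9.96 CPM. AQP1 was at 0 in NS, CFTR in BRM and double, and LUM and KDR in NS, BRM and double. The part of these marker shifts in the results below was not tested. In bulk samples fewer cells of a type and less RNA per cell cannot be told apart, and since no label ties replicates to separate cultures, a p-value here speaks only of the spread among these libraries, possibly a technical one.

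After BRG1 knockdown 11 of the 37 tested junction genes rose and 5 fell. The gap junction gene GJB2, the claudins CLDN3 and CLDN4 and the polarity gene PARD6B were among those that rose, and the tight junction genes MARVELD2 and CLDN2 and the plakophilin PKP3 among those that fell. This is 43.2% called, beside 22.5% of all 14621 genes tested (12.5% higher and 9.97% lower). After BRM knockdown 4 rose (CGN, CLDN14, F11R and LLGL2) and 2 fell (CLDN2 and SPINT1), 16.2% beside 13.9% of all genes (7.66% higher and 6.26% lower), a share near the background. In the double knockdown 9 rose and 5 fell, 37.8% beside 21.6% (11.8% higher and 9.9% lower). E-cadherin (CDH1) and claudin 1 (CLDN1) rose there. The median log2 change over the 37 genes was −0.011 after BRG1 knockdown, 0.28 after BRM knockdown and 0.16 in the double, beside 0.019, 0.032 and 0.015 over all genes tested. The 3 comparisons share the NS libraries. Calls are edgeR quasi-likelihood tests with a Benjamini-Hochberg adjusted p under 0.05 over all genes tested, and errors of log2 changes are SE. Every called gene had the same sign within both sets (16 of 16, 6 of 6 and 14 of 14), although the calls were made on the same libraries. With the replicate number as a block the counts were 21 for BRG1 and 17 for the double, where 36.4% and 35.6% of all genes were called. For BRM the block gave 16, beside 28.4% of all genes, though the numbers were not taken as pairs there. The genes added were TJP3, OCLN, MARVELD2, CLDN1, CLDN3, CLDN4 and ESRP2, which rose, and CLDN12, PKP3 and PKP4, which fell. With no block, the count fell to 10 for BRG1 without BRG1 library 2 or NS library 3. For BRM it was 10 without BRM library 1 and 4 without BRM library 2 or 3. Counts over tested genes are descriptions only. This is because genes near the filter, such as GJB2, GJA1 and CLDN14, pass it through the groups in which they are high. The list was also chosen with earlier results of these data known. Its share called, set beside that of all genes, is therefore no test of the list.

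**Figure D1:**
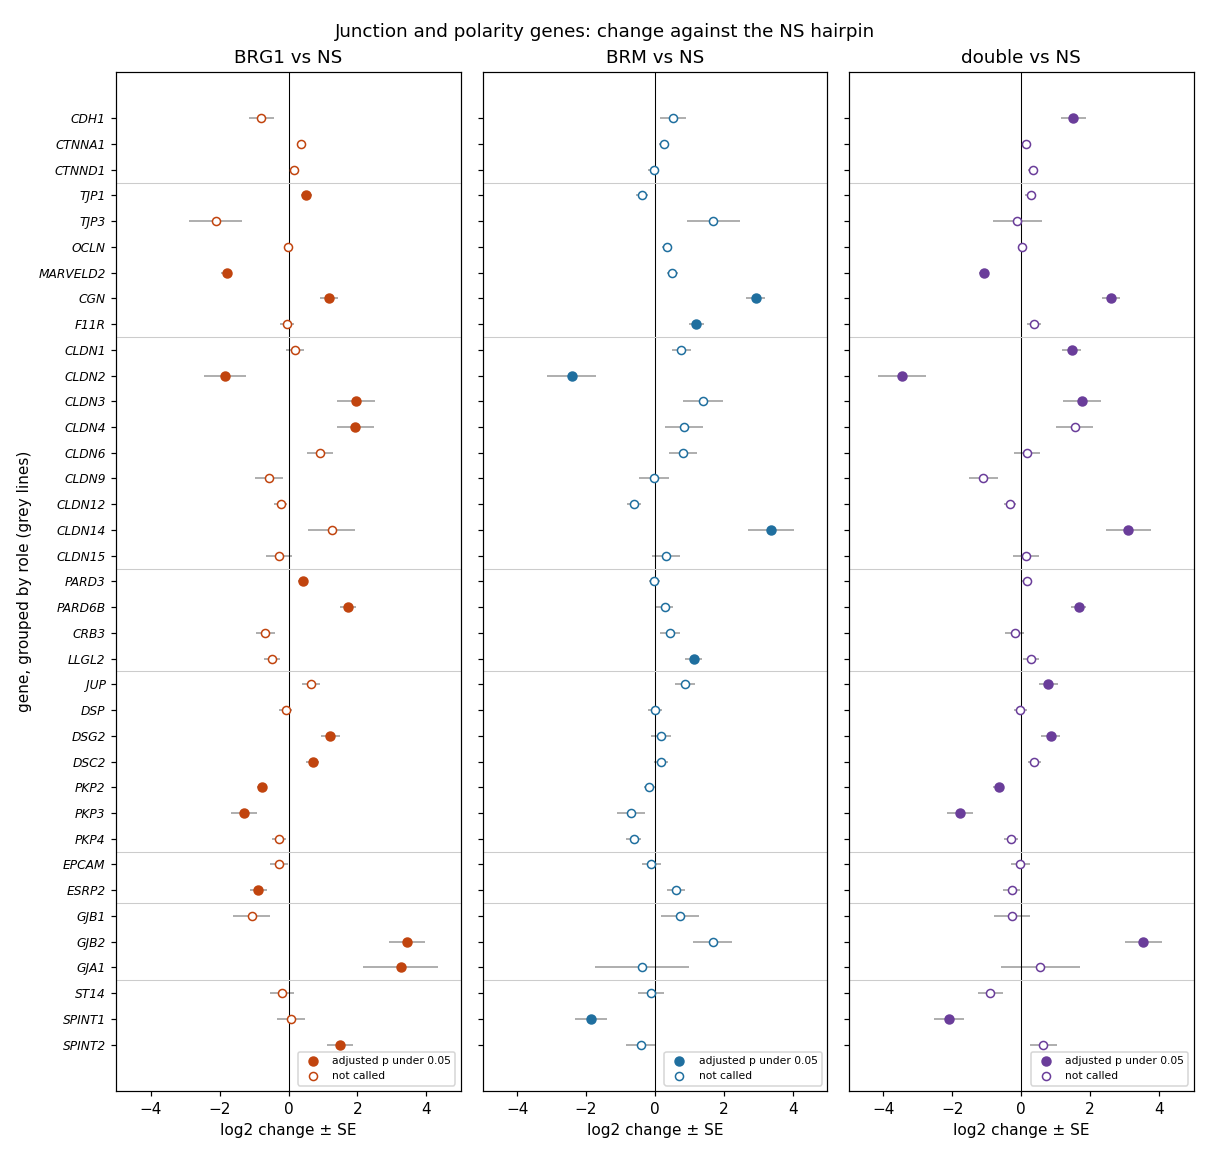
Log2 change (horizontal axis, point ± SE) of the 37 tested junction genes in each knockdown against NS, with genes on the vertical axis grouped by role. Filled points passed an adjusted p under 0.05. BRG1 and double knockdown show 16 and 14 filled points on both sides of 0, and BRM knockdown 6.

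The level of these genes in HepG2 varied widely. In the NS group 26 of the 40 had a mean of at least 10 CPM, 6 had 1 to 10 CPM and 8 had under 1 CPM (CLDN3, CLDN7, CLDN14, GJB2, GJA1, ESRP1, GRHL2 and SPINT2). Per kilobase of merged exons, so that genes of different length can be compared, the highest NS levels were those of the desmosomal linker DSP at 55.7 CPM per kb, EPCAM at 43.7, the α-catenin CTNNA1 at 36.7, the connexin 32 gene GJB1 at 35.4 and plakoglobin (JUP) at 30.4. CDH1 stood at 2.35 CPM per kb in NS and 6.72 in the double knockdown. The summed level of the 40 genes was 2332 to 2983 CPM in NS, 2976 to 3235 in BRG1, 2688 to 3826 in BRM and 3152 to 3636 in double libraries.

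Among the adherens junction genes, CDH1 changed and its cytoplasmic partners CTNNA1 and CTNND1 did not pass. CDH1 (chromosome 16, 68737225 to 68835548, plus strand on GRCh38, protein-coding like all 40 genes) encodes E-cadherin. It held 22.7, 16.3, 9.69 and 9.29 CPM in NS libraries 1 to 4, 9.63, 9.93, 6.57 and 7.47 in BRG1 libraries 1 to 4, 13.5, 26.3 and 22.5 in BRM libraries 1 to 3 and 52.9, 49.2, 17.9 and 46.0 in double libraries 1 to 4. Double libraries 1, 2 and 4 lay above every library of the other groups, whereas double library 3 lay inside the NS range. CDH1 rose by 1.51 ± 0.36 in the double knockdown against NS (adjusted p = 0.00747, 1.38 and 1.74 by set) and by 2.30 ± 0.37 against BRG1 knockdown alone (adjusted p = 0.00119, 2.38 and 2.18 by set). In the single knockdowns its change did not pass, at −0.79 ± 0.36 (adjusted p = 0.133) for BRG1 and 0.52 ± 0.38 (adjusted p = 0.427) for BRM, yet BRG1 libraries were below BRM libraries without overlap, at −1.31 ± 0.38 (adjusted p = 0.0152). That last call was lost without BRM library 2 (highest adjusted p = 0.0668). CTNNA1, the α-catenin that links the complex to actin, held 352, 312, 308 and 323 CPM in NS and 448, 418, 399 and 404 in BRG1 libraries. The groups did not overlap. The change of 0.37 ± 0.13 (adjusted p = 0.0595) missed the threshold and passed with the replicate number as a block, at 0.37 with adjusted p = 0.0301. CTNND1, the p120 catenin that stabilises E-cadherin at the membrane, changed by 0.15 after BRG1 knockdown, −0.037 after BRM knockdown and 0.34 in the double, none of which passed.

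Tight junction membrane and scaffold genes moved in both directions. MARVELD2 (chromosome 5, 69415065 to 69444330, plus strand) encodes tricellulin, which seals the corners where several cells meet, and CGN (chromosome 1, 151510510 to 151538692, plus strand) encodes cingulin, a scaffold protein that binds ZO proteins and actomyosin. MARVELD2 held 34.8, 33.6, 32.3 and 31.1 CPM in NS libraries 1 to 4, 7.18, 10.3, 11.1 and 9.24 in BRG1 libraries 1 to 4, 41.0, 55.8 and 43.7 in BRM libraries 1 to 3 and 15.1, 14.6, 16.1 and 16.6 in double libraries 1 to 4. BRG1 and double libraries were lower than every NS and BRM library, with BRG1 the lowest. It fell by 1.80 ± 0.16 after BRG1 knockdown (adjusted p = 5.5e-06, −1.98 and −1.64 by set) and by 1.08 ± 0.15 in the double (adjusted p = 0.000203, −1.21 and −0.95 by set). The double stood 0.72 ± 0.15 above BRG1 alone (adjusted p = 0.00772), and the change of 0.51 ± 0.16 (adjusted p = 0.0517) after BRM knockdown did not pass although the groups did not overlap. CGN held 2.52, 1.28, 3.14 and 3.02 CPM in NS libraries 1 to 4, 5.13, 6.26, 5.18 and 6.14 in BRG1 libraries 1 to 4, 20.7, 18.4 and 17.9 in BRM libraries 1 to 3 and 16.9, 17.0, 9.83 and 17.5 in double libraries 1 to 4. It was lowest in NS, intermediate in BRG1 and highest in BRM and double libraries, with no overlap between NS and any knockdown. The log2 change was 1.18 ± 0.26 (adjusted p = 0.00414, 1.52 and 0.88 by set) after BRG1 knockdown, 2.92 ± 0.28 (adjusted p = 4.22e-05, 3.30 and 2.54 by set) after BRM knockdown and 2.61 ± 0.26 (adjusted p = 1.46e-05, 3.09 and 2.14 by set) in the double, and all of these calls held without any 1 library.

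Windows before the RefSeq start of MARVELD2 and CGN are printed because these had the smallest adjusted p of the tight junction genes against NS. Those of CLDN1 and GJB2, described below, are printed because each rose in the double knockdown. They are RefSeq promoter windows on GRCh38.p14, 5′ to 3′ on the gene's strand, cut back where GENCODE annotates an exon, with each match to the E-box core CANNTG in capitals (searched on both strands, the same on each).
MARVELD2 (chr5:69414866-69415064, plus strand): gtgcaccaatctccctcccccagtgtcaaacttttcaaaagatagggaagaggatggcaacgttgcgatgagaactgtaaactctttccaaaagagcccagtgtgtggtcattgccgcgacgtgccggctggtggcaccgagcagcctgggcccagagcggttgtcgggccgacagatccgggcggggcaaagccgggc
CGN (chr1:151511137-151511386, plus strand): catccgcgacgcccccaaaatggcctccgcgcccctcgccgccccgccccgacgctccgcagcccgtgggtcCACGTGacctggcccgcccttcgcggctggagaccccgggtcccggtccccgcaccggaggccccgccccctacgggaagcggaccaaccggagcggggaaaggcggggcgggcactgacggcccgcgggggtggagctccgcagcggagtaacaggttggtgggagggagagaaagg
CLDN1 (chr3:190322476-190322696, minus strand): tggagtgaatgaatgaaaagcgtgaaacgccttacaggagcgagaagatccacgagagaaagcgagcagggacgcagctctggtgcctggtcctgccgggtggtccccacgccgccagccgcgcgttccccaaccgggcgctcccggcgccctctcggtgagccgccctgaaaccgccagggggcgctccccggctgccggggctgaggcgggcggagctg
GJB2 (chr13:20193011-20193188, minus strand): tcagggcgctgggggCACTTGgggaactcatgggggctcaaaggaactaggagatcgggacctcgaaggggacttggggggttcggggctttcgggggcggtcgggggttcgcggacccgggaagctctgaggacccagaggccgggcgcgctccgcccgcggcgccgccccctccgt
The CGN and GJB2 windows hold 1 match each and the other windows none. The CGN window lies inside the span GENCODE gives for that gene, past its start at 151510510 and between its exons. Windows of other genes counted below, such as CTNNA1, TJP1, CLDN4 and CLDN14, also lie inside the gene's span, away from its annotated start. A promoter window was found for 25 of the 40 genes. Over the 250 bases before the RefSeq start, CANNTG was found in 14 of 25, beside 61.8% of all 35116 promoters. CACCTG, a form of CANNTG that SNAI and ZEB repressors are known to bind, was found in 8 of 25, beside 17.5%, and the AP-1 motif TGANTCA, which does not overlap these, in 3 of 25 (CLDN4, CLDN15 and GJA1), beside 6.57%. A match describes the letters and is not evidence of a bound site.

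F11R (chromosome 1, 160995211 to 161021348, minus strand) encodes the junctional adhesion molecule JAM-A. It held 136, 125, 144 and 144 CPM in NS libraries 1 to 4, 111, 109, 142 and 165 in BRG1 libraries 1 to 4, 222, 416 and 306 in BRM libraries 1 to 3 and 164, 151, 183 and 212 in double libraries 1 to 4. All 3 BRM libraries lay above every library of the other groups. F11R rose by 1.20 ± 0.21 after BRM knockdown (adjusted p = 0.00192, 1.30 and 1.08 by set), and the double stood below BRM alone, at −0.83 ± 0.21 (adjusted p = 0.0134), a call lost without BRM library 2 (highest adjusted p = 0.12). Of its 31-base words 41.1% also occur in transcripts of other genes, most in AL591806.3, a gene annotated over it on the same strand, so its count depends on how reads were divided and is uncertain. TJP1 (chromosome 15, 29699367 to 29968865, minus strand), the scaffold ZO-1, held 70.1, 56.6, 78.3 and 91.5 CPM in NS and 115, 126, 84.7 and 97.2 in BRG1 libraries, which overlap. The BRM and double means were 56.8 and 89.7 CPM. Its rise of 0.51 ± 0.16 (adjusted p = 0.034, 0.93 and 0.10 by set) was lost without any 1 of BRG1 libraries 1, 2 and 4 and NS libraries 1, 2 and 3 (highest adjusted p = 0.165). TJP3, the scaffold ZO-3, held 2.62, 2.56, 12.4 and 9.20 CPM in NS, 0.237, 0.414, 2.09 and 3.44 in BRG1, 14.2, 13.7 and 36.7 in BRM and 3.99, 4.59, 3.62 and 12.5 in double libraries. Each BRG1 library was below the NS library of its number, but libraries 3 and 4 were higher than 1 and 2 in both groups. Its change of −2.11 ± 0.77 (adjusted p = 0.0636) missed the threshold and passed with the replicate number as a block, at −2.27 with adjusted p = 0.00146, and BRG1 libraries were below BRM libraries, at a log2 difference of −3.80 ± 0.83 (adjusted p = 0.00252). OCLN, occludin, is separated from MARVELD2 by 47961 bases on the same strand. Its means were 29.8, 29.6, 37.8 and 30.5 CPM in NS, BRG1, BRM and double, and it was called in none of the 6 pairwise comparisons, though BRG1 against BRM passed with the replicate number as a block (−0.37 with adjusted p = 0.0202).

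Claudins, the membrane proteins that form the tight junction strands, changed one by one. Of 10 listed, 9 were tested. After BRG1 knockdown CLDN3 and CLDN4 rose and CLDN2 fell, after BRM knockdown CLDN14 rose and CLDN2 fell, and in the double CLDN1, CLDN3 and CLDN14 rose and CLDN2 fell. CLDN1 (chromosome 3, 190305701 to 190322475, minus strand), a sealing claudin of many epithelia, held 86.3, 79.0, 99.9 and 120.0 CPM in NS libraries 1 to 4, 77.9, 87.0, 127 and 148 in BRG1 libraries 1 to 4, 152, 206 and 134 in BRM libraries 1 to 3 and 327, 337, 157 and 242 in double libraries 1 to 4. Every double library was above every NS and BRG1 library, with libraries 1 and 2 the highest. It rose by 1.46 ± 0.27 in the double against NS (adjusted p = 0.00141, 2.004 and 0.86 by set) and by 1.27 ± 0.27 against BRG1 alone (adjusted p = 0.00712, 2.01 and 0.54 by set). Its changes of 0.19 ± 0.26 (adjusted p = 0.685) after BRG1 and 0.77 ± 0.28 (adjusted p = 0.0898) after BRM knockdown did not pass. CLDN4 (chromosome 7, 73799542 to 73832693, plus strand), another sealing claudin, held 38.0, 34.4, 89.8 and 100.4 CPM in NS libraries 1 to 4, 199.997, 207, 287 and 310.2 in BRG1 libraries 1 to 4, 39.9, 114 and 199 in BRM libraries 1 to 3 and 99.6, 76.9, 337 and 256 in double libraries 1 to 4. All BRG1 libraries were above all NS libraries, and within each group libraries 3 and 4 were higher than 1 and 2. It rose by 1.94 ± 0.54 after BRG1 knockdown (adjusted p = 0.0187, 2.49 and 1.65 by set). In the double the change of 1.55 ± 0.54 (adjusted p = 0.0528) missed the threshold and passed with the replicate number as a block, at 1.48 with adjusted p = 0.00194, as did the difference between BRG1 and BRM knockdown, at 1.11 with adjusted p = 0.0138. CLDN3 (chromosome 7, 73768997 to 73770270, minus strand) lies 29271 bases from CLDN4 on the other strand and shares 3.3% of its 31-base words with other genes, CLDN4 foremost. It was scarce, with 21, 115, 53 and 96 counts over all NS, BRG1, BRM and double libraries. It rose by 1.95 ± 0.55 after BRG1 knockdown (adjusted p = 0.0186, 1.77 and 2.09 by set) and by 1.77 ± 0.55 in the double (adjusted p = 0.0326). After BRG1 knockdown the CLDN4 call was lost without any 1 of NS libraries 1 and 2 (highest adjusted p = 0.0649) and the CLDN3 call without any 1 of BRG1 library 4 and NS library 1 (highest adjusted p = 0.0595). In the double the CLDN3 call was lost without any 1 of NS libraries 1, 2 and 4 and double libraries 1, 3 and 4 (highest adjusted p = 0.0989).

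CLDN2 (chromosome X, 106900164 to 106930861, plus strand), which forms cation and water channels in leaky epithelia, held 1.84, 1.36, 3.87 and 2.93 CPM in NS libraries 1 to 4, 0.118, 0.207, 1.31 and 1.13 in BRG1 libraries 1 to 4, 0.484, 0.350 and 0.553 in BRM libraries 1 to 3 and 0.109, 0.270, 0.176 and 0.343 in double libraries 1 to 4. NS libraries were the highest in the series, and all knockdown libraries lay below all of them. It fell by 1.85 ± 0.61 after BRG1 knockdown (adjusted p = 0.0427, −3.30 and −1.46 by set), 2.42 ± 0.71 after BRM knockdown (adjusted p = 0.0361, −1.97 and −2.59 by set) and 3.46 ± 0.69 in the double (adjusted p = 0.00236, −3.10 and −3.74 by set). Its counts over all libraries of NS, BRG1, BRM and double were 160, 60, 25 and 17. The BRG1 call was lost without any 1 of BRG1 libraries 1 and 2 and NS libraries 1, 3 and 4 (highest adjusted p = 0.115) and the BRM call without any 1 of BRM libraries 1, 2 and 3 and NS libraries 3 and 4 (highest adjusted p = 0.147), while the double call held without any 1 library. RIPPLY1 overlaps CLDN2 on the other strand and the strand setting of the counting is not given in the sources used here, so its reads may be mixed in. CLDN14 (chromosome 21, 36460621 to 36576569, minus strand), a claudin known from the inner ear and kidney, was scarce, with 7, 23, 66 and 72 counts over NS, BRG1, BRM and double libraries. All BRM and double libraries, at 0.725 to 1.80 and 0.492 to 1.43 CPM, lay above all NS libraries, at 0 to 0.240 CPM. The log2 change was 3.37 ± 0.67 (adjusted p = 0.00394) after BRM knockdown and 3.11 ± 0.64 (adjusted p = 0.00309) in the double, and after BRG1 knockdown it was 1.25 ± 0.68 (adjusted p = 0.216), which did not pass. CLDN6, CLDN9, CLDN12 and CLDN15 were called in none of the 6 pairwise comparisons. CLDN6, an oncofetal claudin, averaged 27.9, 52.6, 49.2 and 31.5 CPM in NS, BRG1, BRM and double, and its neighbour CLDN9, 206 bases away, 1.44, 0.969, 1.43 and 0.658 CPM. CLDN6 is uncertain, because 16% of its 31-base words occur in other genes and TNFRSF12A overlaps it on the other strand. In the double the change of −1.10 ± 0.42 (adjusted p = 0.075) for CLDN9 missed the threshold and passed with the replicate number as a block, at −1.19 with adjusted p = 0.0306. CLDN12 averaged 40.1, 34.1, 26.1 and 32.0 CPM in the 4 groups and CLDN15 8.60, 7.12, 10.7 and 9.55. CLDN7 had 5, 2, 3 and 2 counts in the 4 groups and was not tested.

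**Figure D2:**
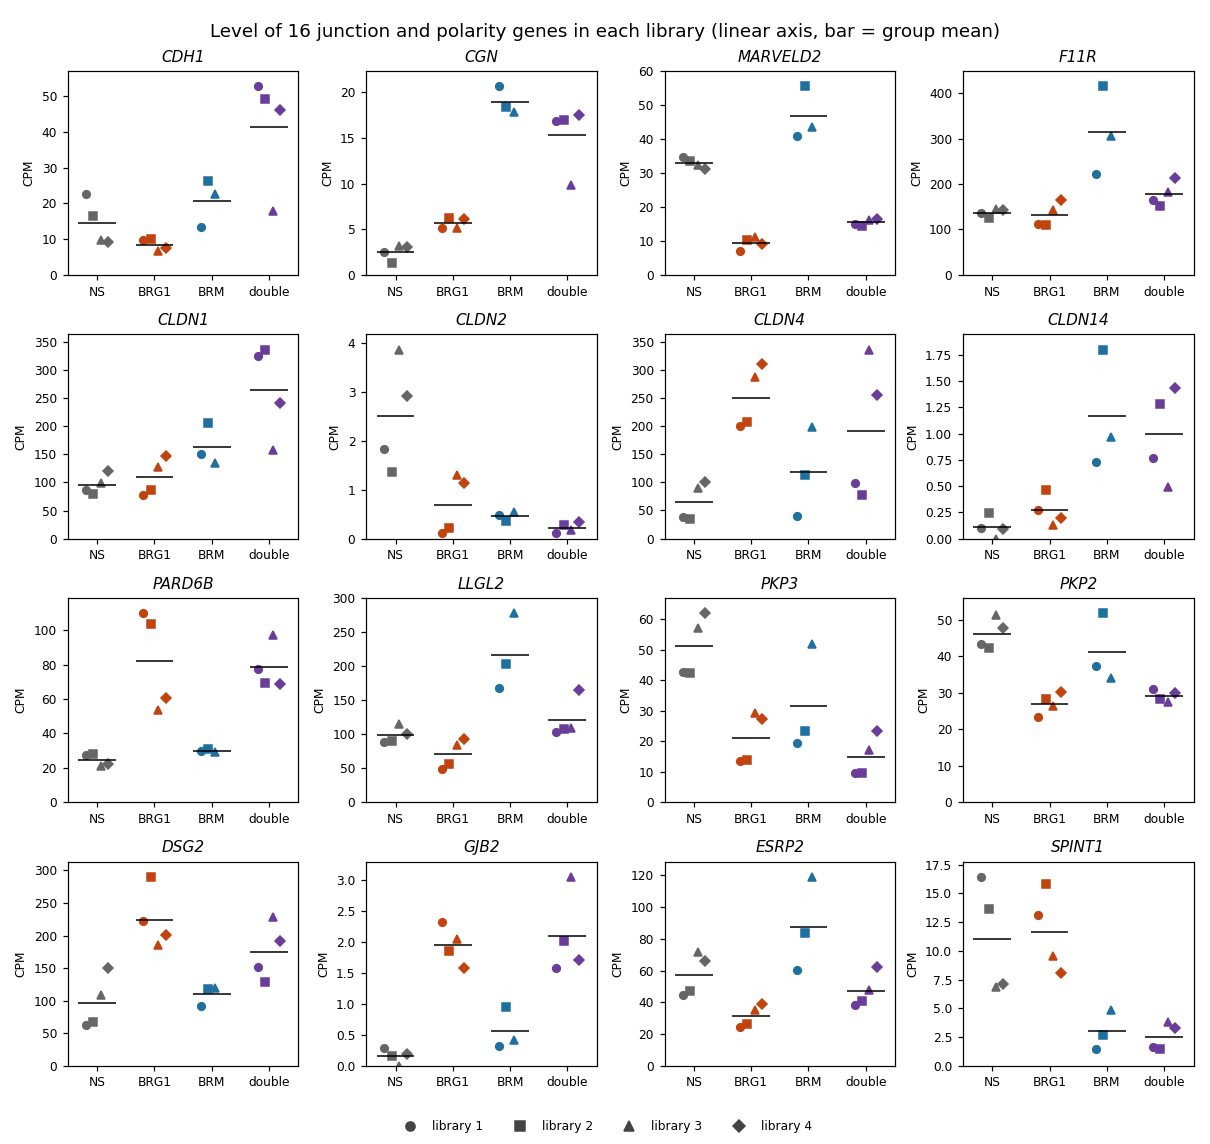
Level in CPM (linear vertical axis from 0) of 16 junction and polarity genes in each of the 15 libraries, by group, with marker shape for the library number and a bar at the group mean. MARVELD2 is low in BRG1 and double libraries, CGN is high in BRM and double libraries, and CDH1 and CLDN1 are highest in the double, with double library 3 below the others.

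Of the 4 polarity genes, PARD6B and PARD3 rose after BRG1 knockdown and LLGL2 after BRM knockdown. PARD6B (chromosome 20, 50731544 to 50756795, plus strand), the PAR6 adaptor that brings atypical protein kinase C to the apical domain, held 27.2, 28.1, 21.2 and 22.4 CPM in NS libraries 1 to 4, 110.1, 104, 53.6 and 60.4 in BRG1 libraries 1 to 4, 29.9, 31.1 and 29.2 in BRM libraries 1 to 3 and 77.6, 69.6, 97.6 and 68.9 in double libraries 1 to 4. BRG1 and double libraries all lay above NS and BRM libraries. It rose by 1.73 ± 0.23 after BRG1 knockdown (adjusted p = 0.000105, 1.95 and 1.39 by set) and by 1.67 ± 0.23 in the double (adjusted p = 0.000142, 1.41 and 1.93 by set), and the change of 0.28 ± 0.24 (adjusted p = 0.505) after BRM knockdown did not pass. PARD3, the PAR3 scaffold that binds PAR6, held 73.8, 74.6, 68.0 and 75.7 CPM in NS and 105, 104, 92.9 and 89.7 in BRG1 libraries, with means of 72.1 in BRM and 81.4 in double. It rose by 0.42 ± 0.14 after BRG1 knockdown (adjusted p = 0.0419, 0.50 and 0.34 by set), a call lost without any 1 of the 8 libraries compared (highest adjusted p = 0.177). LLGL2 (chromosome 17, 75525080 to 75575208, plus strand), the basolateral Lethal giant larvae homologue, held 89.1, 90.3, 115 and 101 CPM in NS libraries 1 to 4, 48.6, 56.0, 84.4 and 92.7 in BRG1 libraries 1 to 4, 168, 203 and 278 in BRM libraries 1 to 3 and 103, 108, 108 and 165 in double libraries 1 to 4. BRM libraries were the highest in the series and BRG1 library 1 the lowest. It rose by 1.13 ± 0.25 after BRM knockdown (adjusted p = 0.00837, 1.05 and 1.36 by set). BRG1 libraries were below BRM libraries, at a log2 difference of −1.62 ± 0.25 (adjusted p = 0.000197). The change of −0.49 ± 0.23 (adjusted p = 0.158) after BRG1 knockdown missed the threshold and passed with the replicate number as a block, at −0.54 with adjusted p = 0.01. Without BRM library 3 (highest adjusted p = 0.0545) the BRM call was lost. CRB3, the Crumbs protein of most epithelia, averaged 14.7 ± 2.003 CPM (SD, n = 4) in NS, 9.21 ± 2.66 (n = 4) in BRG1, 19.9 ± 5.19 (n = 3) in BRM and 12.9 ± 4.99 (n = 4) in double libraries. Its change of −0.67 ± 0.27 (adjusted p = 0.0932) after BRG1 knockdown likewise missed the threshold and passed with the block, at −0.73 with adjusted p = 0.0166, and BRG1 libraries were below BRM libraries, at a log2 difference of −1.11 ± 0.29 (adjusted p = 0.00802).

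Desmosomal genes also split. The desmosomal cadherins DSG2 and DSC2 rose after BRG1 knockdown, the plakophilins PKP2 and PKP3 fell, and the plakin DSP did not pass. DSG2 (chromosome 18, 31498043 to 31549008, plus strand), desmoglein 2, held 63.1, 66.6, 109 and 149.5 CPM in NS libraries 1 to 4, 222, 290.3, 185 and 200.1 in BRG1 libraries 1 to 4, 91.5, 117 and 119.8 in BRM libraries 1 to 3 and 151, 129, 228 and 192 in double libraries 1 to 4. All BRG1 libraries were above all NS libraries, and within NS libraries 3 and 4 were higher than 1 and 2. It rose by 1.21 ± 0.27 after BRG1 knockdown (adjusted p = 0.00549, 1.98 and 0.57 by set) and by 0.85 ± 0.27 in the double (adjusted p = 0.0368, 1.11 and 0.70 by set), where double library 2 lay inside the NS range. DSC2 (chromosome 18, 31058840 to 31102522, minus strand), desmocollin 2, held 24.5, 25.7, 37.6 and 44.6 CPM in NS and 53.3, 65.2, 46.8 and 49.7 in BRG1 libraries and rose by 0.70 ± 0.19 (adjusted p = 0.0149, 1.24 and 0.23 by set). The DSC2 call was lost without any 1 of BRG1 library 2 and NS library 2 (highest adjusted p = 0.0741) and the double call of DSG2 without any 1 of NS libraries 1, 2 and 3 and double libraries 1, 3 and 4 (highest adjusted p = 0.143). PKP3 (chromosome 11, 392614 to 404908, plus strand), a plakophilin that links desmosomal cadherins to desmoplakin, held 42.6, 42.4, 57.2 and 62.0 CPM in NS libraries 1 to 4, 13.4, 13.8, 29.1 and 27.2 in BRG1 libraries 1 to 4, 19.3, 23.4 and 51.9 in BRM libraries 1 to 3 and 9.67, 9.51, 17.0 and 23.3 in double libraries 1 to 4. BRG1 and double libraries lay below all NS libraries, and libraries 3 and 4 were higher than 1 and 2 in NS, BRG1 and double. It fell by 1.29 ± 0.38 after BRG1 knockdown (adjusted p = 0.0234, −1.65 and −1.08 by set) and by 1.78 ± 0.38 in the double (adjusted p = 0.00423, −2.15 and −1.57 by set). The BRG1 call was lost without any 1 of BRG1 libraries 1 and 2 and NS libraries 3 and 4 (highest adjusted p = 0.0618). PKP2 (chromosome 12, 32790745 to 32896840, minus strand), a plakophilin also known from heart desmosomes, held 43.5, 42.1, 51.3 and 47.6 CPM in NS, 23.3, 28.3, 26.3 and 30.2 in BRG1, 37.3, 51.8 and 34.1 in BRM and 30.99, 28.3, 27.5 and 29.9 in double libraries. NS did not overlap with BRG1 or with the double. It fell by 0.77 ± 0.15 (adjusted p = 0.00188, −0.73 and −0.81 by set) and 0.66 ± 0.15 (adjusted p = 0.00543, −0.53 and −0.78 by set). JUP, plakoglobin, which serves both desmosomes and adherens junctions, held 195, 152, 139 and 114 CPM in NS and 227, 233, 244 and 334 in double libraries, which do not overlap, with means of 236 in BRG1 and 275 in BRM. It rose by 0.79 ± 0.27 in the double (adjusted p = 0.0496, 0.41 and 1.19 by set), a call lost without any 1 of NS libraries 2, 3 and 4 and double libraries 1, 2, 3 and 4 (highest adjusted p = 0.147). DSP, desmoplakin, ranged from 394 to 763 CPM over the 15 libraries, with both extremes in NS. PKP4, a plakophilin relative found at several junctions, averaged 144, 119, 93.8 and 118 CPM in NS, BRG1, BRM and double. PKP4 and DSP were called in none of the 6 pairwise comparisons. With the replicate number as a block, BRG1 against BRM passed for PKP4 (0.41 with adjusted p = 0.0309). It did so for PKP3 too (−0.73 with adjusted p = 0.00401). After BRM knockdown every PKP4 value lay below all NS values. That change, −0.62 ± 0.22 (adjusted p = 0.074), missed the threshold and passed with DESeq2, at −0.64 with adjusted p = 0.0233.

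The gap junction genes differed in level by far. GJB1 encodes connexin 32, the main connexin of hepatocytes, and GJB2 (chromosome 13, 20187463 to 20193010, minus strand) connexin 26 and GJA1 connexin 43. GJB2 held 0.291, 0.160, 0 and 0.186 CPM in NS libraries 1 to 4, 2.33, 1.86, 2.04 and 1.57 in BRG1 libraries 1 to 4, 0.322, 0.950 and 0.415 in BRM libraries 1 to 3 and 1.59, 2.02, 3.06 and 1.72 in double libraries 1 to 4, which are 12, 174, 32 and 176 counts per group. BRG1 and double libraries all lay above all NS and BRM libraries. It rose by 3.44 ± 0.52 after BRG1 knockdown (adjusted p = 0.000358, 3.11 and 3.85 by set) and by 3.55 ± 0.53 in the double (adjusted p = 0.000281, 2.89 and 4.27 by set). Both calls held without any 1 library, but the NS level of 0.159 CPM rests on 12 counts. GJB1 held 73.7, 70.2, 121 and 85.8 CPM in NS, 12.1, 14.1, 60.8 and 79.9 in BRG1, 93.9, 123 and 219 in BRM and 53.5, 63.0, 51.8 and 123 in double libraries. BRG1 libraries 1, 2 and 3 were below all NS libraries, 1 and 2 by far, while library 4 lay inside the NS range. The change of −1.07 ± 0.53 (adjusted p = 0.173, −2.46 and −0.55 by set) missed the threshold and passed with the replicate number as a block, at −1.42 with adjusted p = 0.0149, and BRG1 libraries were below BRM libraries, at a log2 difference of −1.80 ± 0.57 (adjusted p = 0.0235), a call lost without any 1 of BRG1 libraries 1 and 2 and BRM library 3 (highest adjusted p = 0.11). GJA1 had 11, 155, 7 and 23 counts in NS, BRG1, BRM and double. It held 0.243, 0.480, 0 and 0 CPM in NS and 3.20, 2.74, 0.696 and 0.246 in BRG1 libraries, which overlap, with BRG1 libraries 1 and 2 the highest. The rise of 3.25 ± 1.08 (adjusted p = 0.0432) was lost without any 1 of BRG1 libraries 1 and 2 and NS libraries 1, 3 and 4 (highest adjusted p = 0.128), with estimates from 2.70 to 4.09. The processed pseudogene GJA1P1 shares sequence with it, and 11.5% of its 31-base words occur elsewhere.

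Of the 4 epithelial identity genes, ESRP2 and EPCAM were expressed and ESRP1 and GRHL2 were not detected above a few counts. ESRP1 had 2, 1, 6 and 5 counts in NS, BRG1, BRM and double, and GRHL2, a transcription factor that maintains epithelial genes, had 3, 1, 0 and 1. A count of 0 over the BRM group allows up to 3 counts, or 0.0485 CPM, for counting error only. ESRP2 (chromosome 16, 68229111 to 68238102, minus strand), a splicing regulator of epithelial isoforms, held 44.6, 47.2, 71.8 and 65.8 CPM in NS libraries 1 to 4, 24.4, 26.5, 35.02 and 38.8 in BRG1 libraries 1 to 4, 60.4, 83.6 and 119 in BRM libraries 1 to 3 and 38.5, 41.1, 47.5 and 62.4 in double libraries 1 to 4. BRG1 libraries lay below all NS and BRM libraries. It fell by 0.88 ± 0.24 after BRG1 knockdown (adjusted p = 0.0177, −0.85 and −0.90 by set), lost without NS library 3 (highest adjusted p = 0.0594), and BRG1 libraries were below BRM libraries, at a log2 difference of −1.49 ± 0.26 (adjusted p = 0.000482). In the double its change of −0.27 ± 0.24 (adjusted p = 0.476) did not pass. NFATC3 overlaps ESRP2 on the other strand. EPCAM, the epithelial cell adhesion molecule, averaged 110.1, 90.4, 103 and 109 CPM in NS, BRG1, BRM and double and was called in no comparison.

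ST14 encodes matriptase, a membrane serine protease of epithelia, and SPINT1 and SPINT2 encode its Kunitz-type inhibitors HAI-1 and HAI-2. SPINT1 (chromosome 15, 40844018 to 40858207, plus strand) held 16.5, 13.6, 6.83 and 7.11 CPM in NS libraries 1 to 4, 13.1, 15.8, 9.53 and 8.11 in BRG1 libraries 1 to 4, 1.45, 2.70 and 4.84 in BRM libraries 1 to 3 and 1.64, 1.42, 3.79 and 3.26 in double libraries 1 to 4. BRM and double libraries all lay below NS and BRG1 libraries, and in NS and BRG1 libraries 1 and 2 were higher than 3 and 4. It fell by 1.86 ± 0.48 after BRM knockdown (adjusted p = 0.0187, −2.81 and −0.53 by set) and by 2.11 ± 0.43 in the double (adjusted p = 0.00305, −3.29 and −0.98 by set), while after BRG1 knockdown it changed by 0.08 ± 0.41 (adjusted p = 0.921). The double was below BRG1 alone, at −2.19 ± 0.43 (adjusted p = 0.0049). The BRM call was lost without any 1 of BRM libraries 1 and 2 and NS library 1 (highest adjusted p = 0.0792). An antisense gene, SPINT1-AS1, overlaps SPINT1. SPINT2 (chromosome 19, 38244035 to 38292614, plus strand) was scarce in HepG2, with 1.02, 0.721, 0.277 and 0.604 CPM in NS and 2.05, 2.33, 1.74 and 1.47 in BRG1 libraries. The BRM and double means were 0.502 and 1.04 CPM. NS and BRG1 did not overlap, and it rose by 1.49 ± 0.38 after BRG1 knockdown (adjusted p = 0.0115, 1.30 and 1.75 by set). ST14 averaged 2.25, 1.96, 2.08 and 1.20 CPM, and its change of −0.90 ± 0.35 (adjusted p = 0.086) in the double missed the threshold and passed with the replicate number as a block, at −0.97 with adjusted p = 0.0158.

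The knockdowns were also compared with each other. BRG1 against BRM knockdown gave the most calls among these genes, as it did among all genes tested. Of the 37, 8 were higher and 11 lower in BRG1, 51.4% beside 33.9% of all genes tested (17.2% higher and 16.7% lower). MARVELD2 differed by −2.31 ± 0.17 (adjusted p = 4.84e-07), CGN by −1.74 ± 0.26 (adjusted p = 0.000147), F11R by −1.25 ± 0.21 (adjusted p = 0.000379) and SPINT1 by 1.94 ± 0.48 (adjusted p = 0.0058). PARD6B was higher in BRG1 by 1.45 ± 0.25 (adjusted p = 0.000405) and TJP1 by 0.90 ± 0.18 (adjusted p = 0.00134). These 6 calls held without any 1 library. In the double against BRG1 knockdown alone, 6 genes were higher (CDH1, CGN, CLDN1, CLDN14, LLGL2 and MARVELD2) and SPINT1 was lower. This is 18.9% beside 10.8% (4.1% higher and 6.72% lower). SMARCA4 was also higher in double libraries, at 39.1 to 52.0 CPM against 24.4 to 29.3 in BRG1 libraries, without overlap. The part of this difference in remaining BRG1 transcript was not tested. CGN stood higher by 1.43 ± 0.25 (adjusted p = 0.00204). LLGL2, at 0.78 ± 0.24 (adjusted p = 0.0466), was lost without any 1 of BRG1 libraries 1 and 2 and double libraries 1, 2, 3 and 4 (highest adjusted p = 0.131), and CLDN14, at 1.86 ± 0.56 (adjusted p = 0.0446), without any 1 of BRG1 libraries 1, 3 and 4 and double libraries 1, 2 and 4 (highest adjusted p = 0.115). In the double against BRM knockdown alone, GJB2, PARD6B and TJP1 were higher and ESRP2, F11R, LLGL2, MARVELD2 and PKP2 lower. This is 21.6% beside 19.1% (9.32% higher and 9.74% lower), a share near the background. The count was 4 without BRM library 2 or 3. MARVELD2 fell by 1.59 ± 0.16 (adjusted p = 1.92e-05) and PARD6B rose by 1.38 ± 0.25 (adjusted p = 0.00122), and both held without any 1 library. TJP1 was lost without BRM library 3 (highest adjusted p = 0.0649) and GJB2 without any 1 of BRM libraries 1 and 3 and double library 3 (highest adjusted p = 0.0766). ESRP2 and LLGL2 were each lost without 5 of the 7 libraries in turn, with highest adjusted p = 0.168 and 0.158, namely double libraries 1, 2 and 3 and BRM libraries 2 and 3. PKP2 was lost without any 1 of BRM library 2 and double libraries 1, 2, 3 and 4 (highest adjusted p = 0.291). Whether the 2 effects add was asked by an interaction contrast, the double effect less the sum of the single effects in log2 units. None of the 37 genes was called by edgeR, beside 0.499% of all genes (0.103% higher and 0.397% lower). At an unadjusted p under 0.05 there were 6, 5 of them below 0. All genes were not counted at that threshold, so this says nothing of these genes as a set. DESeq2 called 2, likewise without a count over all genes. These 2 were CDH1, at 1.79 ± 0.53 (adjusted p = 0.156) in edgeR and adjusted p = 0.03 in DESeq2, and CGN, at −1.49 ± 0.36 (adjusted p = 0.0865) in edgeR and adjusted p = 0.00578 in DESeq2.

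**Figure D3:**
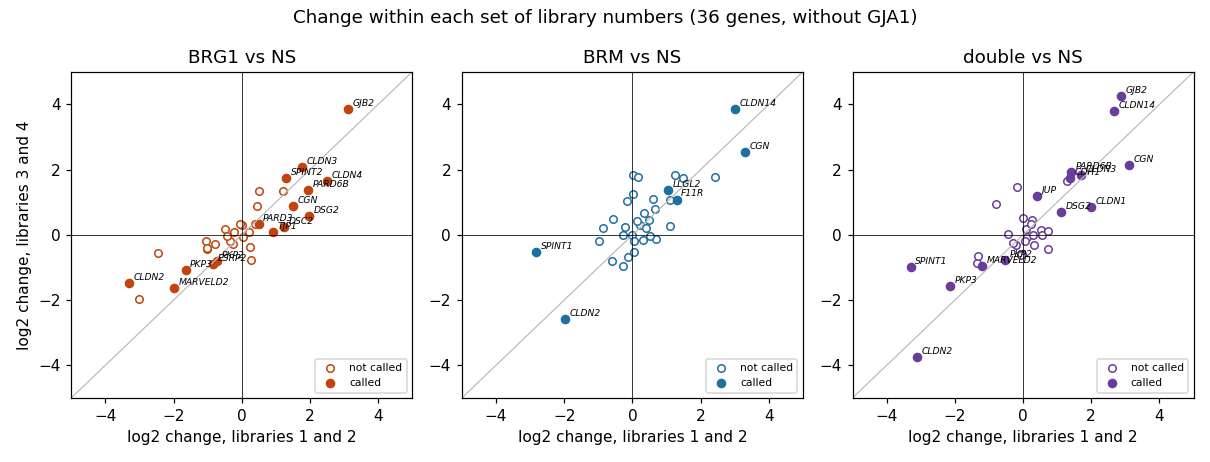
Log2 change within libraries 3 and 4 (vertical axis) against that within libraries 1 and 2 (horizontal axis) for 36 junction genes in each knockdown, without GJA1, which had no count in NS libraries 3 and 4. Filled points are genes called on all libraries, which have the same sign on both axes, and the grey line marks equal change. SPINT1 and DSG2 lie off the line.

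A second list held 65 other junction and polarity genes, of which 45 were tested. After BRG1 knockdown 5 rose and 6 fell, after BRM knockdown 4 and 5, and in the double 6 and 9, or 24.4, 20 and 33.3% called beside 22.5, 13.9 and 21.6% of all genes. The immunoglobulin-type adhesion molecule ESAM averaged 16.1 CPM in NS, 109 in BRG1, 7.48 in BRM and 42.4 in double libraries. It rose by 2.75 ± 0.20 after BRG1 knockdown (adjusted p = 1.28e-06) and by 1.40 ± 0.19 in the double (adjusted p = 0.000164), and fell by 1.10 ± 0.21 after BRM knockdown (adjusted p = 0.00365). NECTIN4, a nectin of adherens junctions, averaged 14.2, 47.8, 40.2 and 60.1 CPM in the same order and rose by 1.75 ± 0.30 after BRG1 knockdown (adjusted p = 0.0009), 1.503 ± 0.32 (adjusted p = 0.00603) after BRM knockdown and 2.08 ± 0.30 (adjusted p = 0.000259) in the double. After BRG1 knockdown the desmosomal protein PERP rose by 1.68 ± 0.22 (adjusted p = 0.000104) and the connexin 45 gene GJC1 by 2.07 ± 0.29 (adjusted p = 0.00017), while MAL2, a protein of apical transcytosis, fell by 2.21 ± 0.32 (adjusted p = 0.000214). The claudin CLDN11 fell by 2.13 ± 0.28 after BRM knockdown (adjusted p = 0.000283) and by 2.54 ± 0.26 in the double (adjusted p = 1.46e-05). PRKCZ, an atypical protein kinase C, rose by 0.86 ± 0.19 after BRM knockdown (adjusted p = 0.00774), and the plakin PPL fell by 2.15 ± 0.19 in the double (adjusted p = 5.51e-06).

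Transcription factors and markers of the epithelial and mesenchymal state formed a further list, with 18 of 22 genes tested. After BRG1 knockdown 7 rose and 3 fell, after BRM knockdown 4 rose, and in the double 6 rose and 2 fell. This is 55.6, 22.2 and 44.4% called beside the same background. SNAI2, GRHL3 and OVOL1 passed the filter on low counts through the groups in which they are high. Their calls and these shares are therefore descriptions only. SNAI1, a repressor of CDH1, held 6.46, 6.25, 5.17 and 6.18 CPM in NS libraries 1 to 4, 23.3, 20.4, 17.3 and 16.4 in BRG1 libraries 1 to 4, 5.64, 6.70 and 8.58 in BRM libraries 1 to 3 and 23.7, 19.0, 38.3 and 27.6 in double libraries 1 to 4. Every BRG1 and double library was above every NS and BRM library. It rose by 1.68 ± 0.22 after BRG1 knockdown (adjusted p = 0.000103) and by 2.17 ± 0.22 in the double (adjusted p = 1.6e-05). Mean CDH1 was highest in the double, where it stood at 52.9, 49.2, 17.9 and 46.0 CPM in libraries 1 to 4. A link between these genes was not tested. SNAI2, the related repressor, had 1 count over the NS group and 30, 37 and 45 counts in BRG1, BRM and double. The ratios to NS were 22.3 (3.71 to 909.9), 44.8 (7.55 to 1815) and 37.2 (6.35 to 1503), with exact 95% intervals for counting error only, and edgeR called all 3 (adjusted p = 0.00287, 0.00112 and 0.000636). GRHL3, a Grainyhead factor related to GRHL2, had 3 NS counts and ratios of 27.4 (8.99 to 136) in BRM and 25.9 (8.61 to 128) in the double (adjusted p = 0.00045 and 0.000172). OVOL1, a zinc-finger factor of epithelial differentiation, had 5 counts in NS, 12 in BRG1, 111 in BRM and 9 in double libraries, and rose by 4.59 ± 0.75 after BRM knockdown (adjusted p = 0.00113). KLF4 rose by 2.72 ± 0.38 after BRG1 knockdown (adjusted p = 0.00018) and by 2.77 ± 0.38 in the double (adjusted p = 0.00016), KLF5 by 1.61 ± 0.33 after BRG1 knockdown (adjusted p = 0.00307) and SNAI3 by 1.68 ± 0.38 after BRM knockdown (adjusted p = 0.00866). CDH2, FN1 and ZEB1 were chosen after their values were seen. N-cadherin (CDH2) averaged 117 ± 23.9 CPM in NS and 47.7 ± 4.36 in the double (SD, n = 4 each). Its means in BRG1 and BRM libraries were 96.7 and 109 CPM. CDH2 fell by 1.29 ± 0.26 in the double (adjusted p = 0.00265). Fibronectin (FN1), at 8123 CPM in NS beside 7407 for ALB, fell by 1.07 ± 0.24 in the double (adjusted p = 0.00588). FN1 averaged 7927 CPM in BRG1, 4999 in BRM and 3864 in double libraries, and every BRM library also lay below every NS library. ZEB1, a CDH1 repressor, rose in the double by 0.91 ± 0.21 (adjusted p = 0.00603). It averaged 17.6 CPM in NS, 31.8 in BRG1, 14.6 in BRM and 33.1 in double libraries, with every BRG1 library also above every NS library. Whether these changes mark a shift in epithelial or mesenchymal state was not tested. The mesenchymal filament gene VIM averaged at most 0.286 CPM in any group and was not tested.

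**Figure D4:**
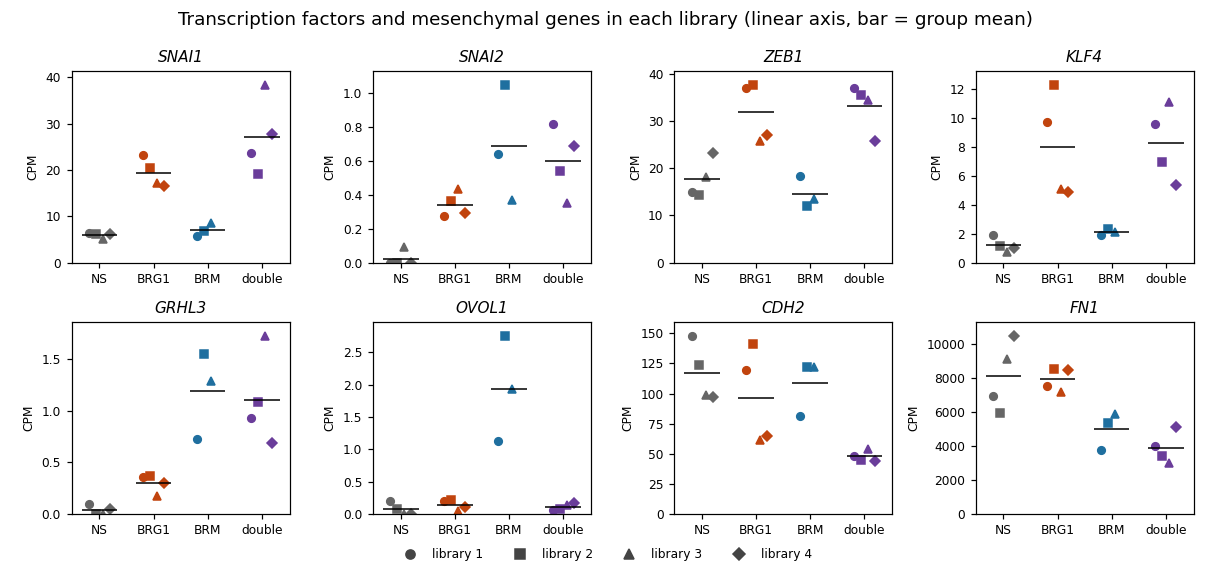
Level in CPM (linear vertical axis from 0) of 6 transcription factor genes, N-cadherin (CDH2) and fibronectin (FN1) in each library, by group. Marker shape gives the library number and a bar the group mean. SNAI1 is high in BRG1 and double libraries, OVOL1 in BRM libraries, and CDH2 is lowest in the double.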

How the data were processed

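The 15 HepG2 libraries were analysed from the deposited table of estimated counts, whole numbers with 1 row per gene symbol and no scaling between libraries. The submitters' processing notes name kallisto, DESeq2 and GRCh38. Their versions, the annotation and whether counting used strand are each not given in the sources here. Because kallisto divides reads shared by similar transcripts by estimation, values of overlapping genes and paralogs rest on that division. Comparison tables made by the authors were not used.

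Counts were fitted with edgeR 4.0.16 in R 4.3.3 (robust quasi-likelihood F test, TMM factors, filterByExpr on the group with minimum count 10), all 15 libraries and 4 group means in 1 fit, with 7 contrasts. Tests are two-sided and p-values are Benjamini-Hochberg adjusted over 14621 genes. The SE is the absolute log2 change over the square root of F, and CPM uses TMM-scaled totals. Alternatives were DESeq2 1.42.0, RLE factors, no filter, a replicate block, a set term, contrasts within sets, the compared groups alone and leaving out each library. Contrasts within sets came from 1 fit of all 15 libraries with a mean for each group and set, so they share 1 estimate of the spread. The code was tested on simulated data.

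Replicate numbers were taken as pairs where same-numbered libraries deviated together from their group means, with every correlation over 0.1. That was the case between NS and BRG1 (0.427 to 0.565), between NS and double (0.179 to 0.454) and between BRM and BRG1 (0.104 to 0.532). Calls came from group means alone and used neither these pairs nor the sets, and the block was run as an alternative. The second set holds a single BRM library, so comparisons with BRM mix the sets unevenly. Libraries within a group differed beyond counting noise (chi-square per degree of freedom 5.35 to 236), so each was kept as its own sample.

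Genes given in full were the 20 of 23 called against NS with the smallest adjusted p, and up to 4 per comparison from the other lists. The members and lists were chosen with earlier results of these data known. Coordinates, exon lengths and the share of 31-base words found in transcripts of other genes come from GENCODE release 29 on GRCh38, and promoter windows from RefSeq on GRCh38.p14.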

Additional observations from a re-analysis of the deposited data

Results flagged for a closer look

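Among 111 sets of 4 libraries (37 tested genes in NS, BRG1 and double), 6 held a library whose gap to the nearest other exceeded Dixon's 95% critical value. Chance flags about 1 in 20 such sets. All 6 were in the double group, 5 at library 4 and 1 at library 3. TJP3 was 12.5 CPM in double library 4, where the other double libraries held 3.62 to 4.59 CPM. CGN was 9.83 CPM in double library 3, where the other double libraries held 16.9 to 17.5 CPM. JUP was 334 CPM in double library 4, where the other double libraries held 227 to 244 CPM. CRB3 was 20.4 CPM in double library 4, where the other double libraries held 9.98 to 10.7 CPM. LLGL2 was 165 CPM in double library 4, where the other double libraries held 103 to 108 CPM. GJB1 was 123 CPM in double library 4, where the other double libraries held 51.8 to 63.0 CPM.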

How the results depend on the processing

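Of the 70 called changes of single genes over the 6 pairwise comparisons, none reversed under any alternative run, and with DESeq2, with the set term and with the replicate block all 70 were called. With RLE factors 3 were lost, without the low-count filter 13, with the compared groups alone in the fit 14, and within libraries 1 and 2 another 4. Within libraries 3 and 4 the BRM mean is a single library, so calls there are not counted here. Counts of called genes that moved by over 1.5 times were these, and the cause was not tested. For BRM against NS the count of 6 became 11 with DESeq2, 16 with the replicate block, 17 with the set term and 14 within libraries 1 and 2. For double against BRG1 the count of 7 became 12 with the set term and 17 within libraries 1 and 2. For double against BRM the count of 8 became 14 with the replicate block, 17 with the set term, 15 within libraries 1 and 2 and 4 with those groups alone. The interaction count of 0 became 2 with DESeq2, 1 with the replicate block (CGN, adjusted p = 0.0257), 5 with the set term and 8 within libraries 1 and 2. Calls over all 14621 genes rose with the set term too. They went from 2035 to 4684 for BRM against NS and from 1582 to 3728 for double against BRG1. For double against BRM they went from 2787 to 5718 and for the interaction from 73 to 1061. Beyond the block and the set term, calls over all genes were not counted under these alternatives. Leaving out 1 library at a time gave 10 to 17 called for BRG1 against NS, 4 to 10 for BRM, 11 to 14 for double, 5 to 6 for double against BRG1, 4 to 9 for double against BRM, 15 to 19 for BRG1 against BRM and 0 for the interaction in each case.

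The replicate block gave 21 calls for BRG1 against NS, 17 for double against NS, 23 for BRG1 against BRM and 10 for double against BRG1, and it lost none. Over all genes it called 22.3% for double against BRG1 (10.8% without it), 4.33% for the interaction (0.499%), 28.4% for BRM against NS (13.9%) and 36.3% for double against BRM (19.1%). For BRG1 against NS, double against NS and BRG1 against BRM it called 36.4, 35.6 and 49.4% (22.5, 21.6 and 33.9% without it). Same-numbered libraries did not deviate together in every pair for BRM and NS (correlations of 0.0733 to 0.527), double and BRG1 (0.0578 to 0.659) or double and BRM (0.0133 to 0.589), so there the number was not taken to pair samples. Values under about 1 CPM rest on few counts and have wide errors.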
